A study of Mus musculus with 4 samples.

Results

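Spp1 macrophages are the cells of an inflamed mouse esophagus that carried transcripts of both complement C1q and osteopontin. A cell was taken when it held 10 or more summed molecular counts (UMIs, each standing for 1 captured transcript) of C1qa, C1qb and C1qc, 10 or more UMIs of Spp1, and fewer than 3 summed UMIs of the proliferation genes Mki67 and Top2a. This gave 131 cells of 6054 in all, 48 from Il20rb knock-out (KO) mice and 83 from wild-type (WT) mice. The cells were thus chosen by their measured UMIs of these 6 genes, whose levels are descriptions here and support nothing. Arg1 and Timp1, for which the cells were also named, are described in the same way.

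The cells came from 5 KO mice (IL20RB-/-) and 5 WT mice, numbered 1 to 5 within each genotype by their hashtag antibodies. IL20RB is a chain shared by the receptors of the cytokines IL-19, IL-20 and IL-24. Every mouse of both genotypes went through the same model of eosinophilic esophagitis. It had MC903 (calcipotriol, a vitamin D analog that irritates skin) and ovalbumin on the ear for 14 days, then ovalbumin in the drinking water, and 50 mg ovalbumin by gavage on days 15 and 17. Esophagi were taken on day 18, digested with enzymes, pooled after tagging and sorted for viable CD45+ (immune) cells, which were run in 2 wells of a droplet instrument. No unchallenged mouse is among the samples, and the labels used here give no strain, age or sex.

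Osteopontin, the product of Spp1, is a secreted phosphoprotein that binds integrins and CD44 and is made by macrophages in wounds, scars and tumors. C1q, made from C1qa, C1qb and C1qc, starts the classical complement cascade and is a hallmark of mature tissue macrophages. Macrophages that take up lipid and cell debris are known to turn on Trem2, Gpnmb, fatty acid binding proteins and lysosomal genes, and macrophages of this kind are often found together with Spp1 expression in damaged tissue.

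The Spp1 macrophages carried macrophage transcripts, and markers of other lineages were low in sum. All 10 macrophage markers were found in them, with a summed level of 18370 CPM (a gene's UMIs scaled to the same total in every group). The 1129 other C1q macrophages (the same C1q and cycling limits, Spp1 under 10 UMIs) had 13580 CPM. Over mice with 10 or more of the cells the sums overlapped, at 12080 to 43170 CPM against 11250 to 18890 CPM. The sum does not stand for each macrophage gene. In the mice fitted below, Cd68 was higher (log2 fold change 0.69) and Mrc1 lower (-0.87). All 8 monocyte markers were found in Spp1 macrophages, at 5653 CPM against 5431 CPM in other C1q macrophages. Dendritic cell markers summed to 4.36 CPM, against 33.2 CPM in other C1q macrophages, and Flt3, Xcr1, Clec9a, Zbtb46, Ccr7 and Fscn1 were at 0. Keratinocyte markers gave 0 UMIs among 1604229. Neutrophil markers summed to 77.3 CPM (27.7 to 102 CPM over mice with 10 or more of the cells), against 59.6 CPM in other C1q macrophages. Lymphocyte markers summed to 169 CPM, of which Il7r, the interleukin-7 receptor chain, gave 162 CPM, against 57.3 CPM in other C1q macrophages. The T cell gene Cd3e was found in 1 of the 131 cells. In single cells, 49 of the 131 held 3 or more UMIs of lymphocyte, neutrophil, mast cell or keratinocyte markers. So did 86 of the 1129 shallower other C1q macrophages. Il7r counts among these markers and was found in 70 of the 131 cells, so such cells need not be of mixed lineage. How many of the 49 rest on Il7r alone was not counted, and no doublet caller was run.

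The gate sits on raw UMIs, and the cells it took were deep. Their median was 10779 UMIs and 2818 genes per cell, against 5830 UMIs and 1937 genes in other C1q macrophages and 6737.5 UMIs and 1977 genes in the 160 cells that passed the Spp1 limit but had fewer than 10 C1q UMIs (Spp1-high cells low in C1q). The median mitochondrial share was 1.69%, against 2.26% and 1.53% in these comparison cells. Spp1 macrophages held 43.2% of all Spp1 UMIs in the table, and the Spp1-high cells low in C1q held 39.2%. There was no gap in Spp1 at the limit. The 18 cells with 10 to 12 Spp1 UMIs, just inside, had 1058 CPM of Spp1, 1481 of Arg1, 369 of Timp1 and 2267 of Cd74. The 31 cells with 7 to 9 UMIs, just outside, had 841 CPM of Spp1, 624 of Arg1, 159 of Timp1 and 3291 of Cd74. At the other end, 41 cells with 50 or more Spp1 UMIs reached 405 UMIs in a cell, with 8528 CPM of Spp1, 3584 of Arg1 and 1179 of Timp1.

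**Figure D1:**
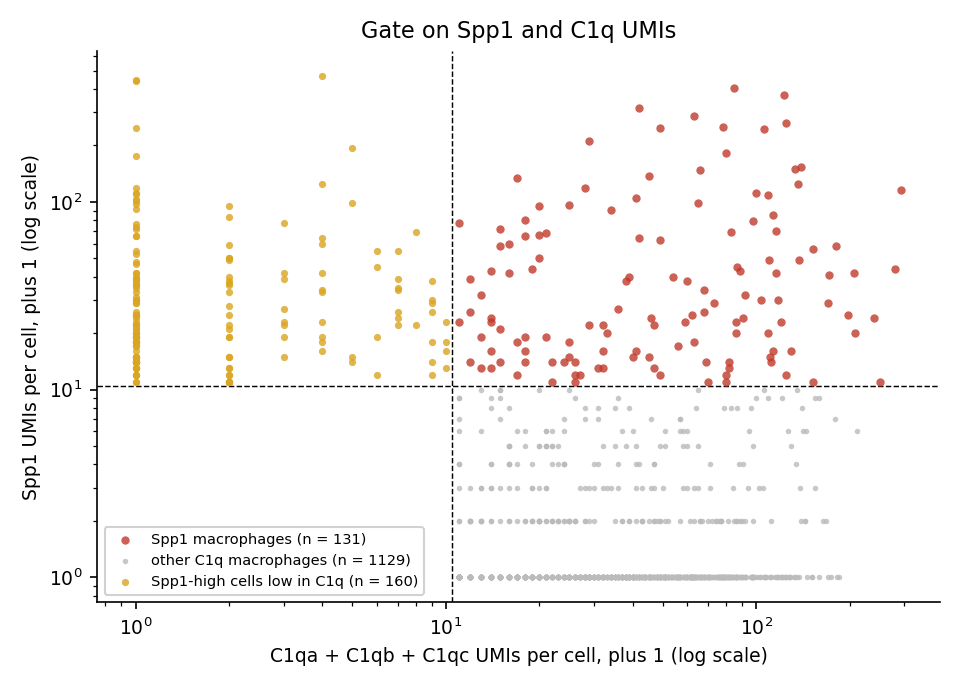
Spp1 UMIs (vertical axis) against summed C1qa, C1qb and C1qc UMIs (horizontal axis) per cell, both plus 1 on log scales, for 131 Spp1 macrophages, 1129 other C1q macrophages and 160 Spp1-high cells low in C1q; dashed lines mark the limits of 10 UMIs. Spp1 levels run on across the lower limit without a gap, up to 405 UMIs in a Spp1 macrophage.

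Within the gate the cells differed from each other. Arg1, the enzyme arginase 1 that turns arginine into ornithine, was found in 117 of the 131 cells (89.3%), and 81.3% when each cell was thinned to 3000 UMIs. In other C1q macrophages the shares were 27.6% and 23.9% thinned. In lymphocytes, which had a median of 3246 UMIs, the share was 6.16% before thinning. Timp1, a secreted inhibitor of matrix metalloproteinases, was found in 58.8% of the Spp1 macrophages (42.2% thinned), against 19.6% (15.6% thinned) in other C1q macrophages. Most cells with Timp1 also held Arg1: 76 cells held both, 41 held Arg1 without Timp1, 1 held Timp1 without Arg1 and 13 held neither. With Arg1 in 117 of the 131 cells, few could hold Timp1 without it. Among other C1q macrophages 142 held both and 79 held Timp1 without Arg1.

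A second pair of genes was found in many of the cells. Trem2, a lipid-sensing receptor, was found in 87.0% of the cells and Gpnmb, a glycoprotein of lysosomes and the cell surface, in 53.4%, with both in 68 cells. Over the 131 cells, which share libraries and differ in depth, Spearman's rho of log levels was 0.60 between Trem2 and Gpnmb, 0.47 between Spp1 and Arg1, 0.42 between Arg1 and Timp1, 0.28 between Spp1 and Timp1, 0.32 between Spp1 and Lgals3, 0.04 between Spp1 and Gpnmb, and -0.46 between Trem2 and Ly6c2, a surface protein of inflammatory monocytes. These are descriptions of 1 set of cells. Trem2 and Gpnmb thus had the closest relation of those given, and Spp1 and Gpnmb levels were close to unrelated inside the gate.

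Spp1 macrophages were spread unevenly over the mice, and genotype did not separate them. KO mice 1 to 5 gave 33, 1, 3, 3 and 8 of these cells, and WT mice 1 to 5 gave 35, 21, 9, 12 and 6. As a share of all CD45+ cells this was 3.76%, 0.256%, 1.11%, 0.721% and 1.18% in KO mice, against 3.90%, 3.30%, 1.11%, 2.40% and 1.04% in WT mice. The means were 1.41 ± 1.37% in KO and 2.35 ± 1.28% in WT mice (SD, n = 5 each), a difference within the spread between mice (two-sided exact permutation p = 0.294; the smallest p that this design allows is 0.00794). KO mouse 1 stood nearly as high as the highest WT mouse, while the other 4 KO mice lay at or under 1.18%.

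Taken as a share of all C1q macrophages, the Spp1 macrophages made up 19.5%, 1.03%, 4.17%, 2.88% and 6.35% in KO mice, against 27.8%, 14.4%, 5.29%, 9.60% and 4.80% in WT mice. The means were 6.79 ± 7.38% in KO and 12.4 ± 9.44% in WT mice (SD, n = 5 each; exact permutation p = 0.333). Without KO mouse 1 the means were 3.61% in KO and 12.4% in WT mice, which also missed the threshold (exact permutation p = 0.0794). C1q macrophages as a whole were 22.9 ± 3.67% of KO and 20.9 ± 4.14% of WT cells (SD, n = 5 each; exact permutation p = 0.476). Depth, on which a gate of raw UMIs depends, was 5733 ± 379 UMIs per cell in KO and 4776 ± 913 in WT mice as the mean of medians (SD, n = 5 each; exact permutation p = 0.0794). A gate on shares of each cell's UMIs gave 1.96% in KO and 2.93% in WT mice (exact permutation p = 0.357). By well, the means were 1.79% in KO and 2.93% in WT mice in well 1 (exact permutation p = 0.333), and 1.04% in KO and 1.80% in WT mice in well 2 (exact permutation p = 0.389).

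**Figure D2:**
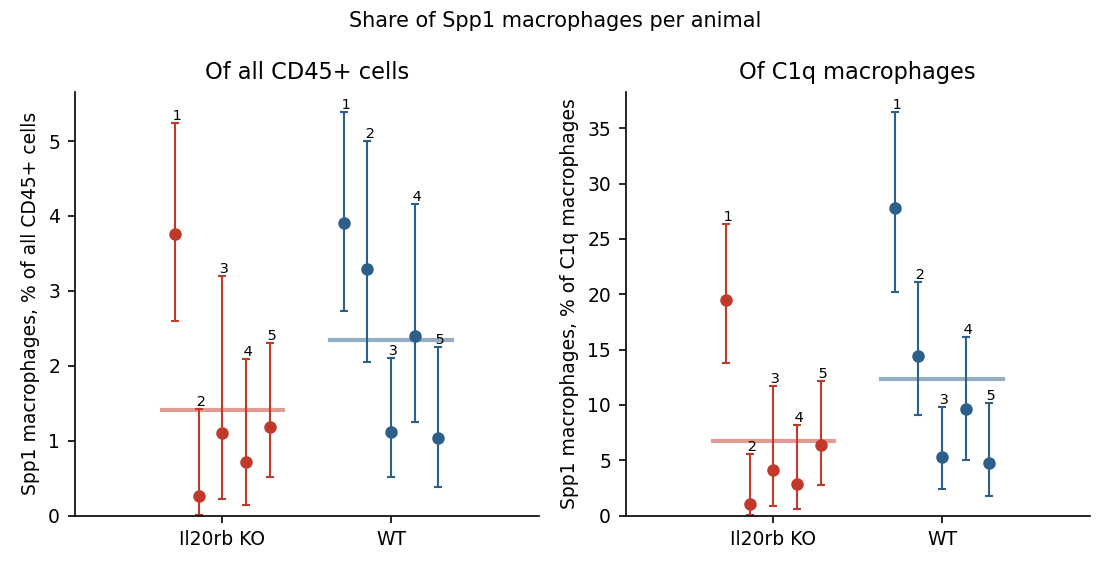
Spp1 macrophages as a percentage of all CD45+ cells (left) and of C1q macrophages (right) in each mouse, Il20rb KO left of WT; points are mice with their numbers, bars exact binomial 95% intervals that cover counting error only, and horizontal lines the mean of 5 mice. KO mouse 1 at 3.76% and WT mouse 1 at 3.90% of all cells are the highest of their genotypes.

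The next question was how Spp1 macrophages differ from the other C1q macrophages of the same mice. The 4 mice with 10 or more cells of both kinds were used (KO mouse 1 and WT mice 1, 2 and 4; 101 Spp1 macrophages), with UMIs summed per mouse and cell group. In edgeR's quasi-likelihood test with the mouse as a block, 432 of 5741 genes passed a Benjamini-Hochberg adjusted p under 0.05, or 7.52%. Of these, 234 (4.08%) were higher and 198 (3.45%) lower in Spp1 macrophages, and the median log2 fold change over all tested genes was -0.001. Levels below are CPM after TMM scaling, in the order KO mouse 1, then WT mice 1, 2 and 4. The gate genes stood at 4427 ± 2259 CPM of Spp1 in Spp1 macrophages and 135 ± 22.4 in other C1q macrophages (SD, n = 4 mice) and C1qa at 2396 ± 1109 and 2078 ± 417 CPM (SD, n = 4 mice). Only 1 KO mouse entered. DESeq2 called 176 genes and edgeR without KO mouse 1 called 217. Without cells that held 3 or more UMIs of other lineages' markers, edgeR called 131, of which 116 were among the 432. That fit held 3 mice, and the cells left out include those with 3 or more UMIs of Il7r. Each well alone gave fewer calls, 120 in well 1 and 162 in well 2, of which 109 and 119 were among the 432.

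Most listed genes of lipid-handling macrophages were higher in Spp1 macrophages. Of the 22 members of the lipid-associated list, all tested, 15 were higher and 0 lower, with a median log2 fold change of 1.13. Fabp4, a fatty acid binding protein, had 87.2, 120, 132 and 122 CPM in Spp1 macrophages, against 4.14, 10.9, 12.7 and 14.4 CPM in other C1q macrophages. Every Spp1 macrophage value was above every comparison value (log2 fold change 3.49 ± 0.28 SE, edgeR adjusted p = 1.01e-08). Its transcripts lay in few cells: 23 of the 131 (17.6%) held any Fabp4. Outside the 4 fitted mice, Fabp4 gave 0 UMIs in the 8 Spp1 macrophages of KO mouse 5 and the 6 of WT mouse 5. It also gave 0 in the 1 cell of KO mouse 2, but 8 in KO mouse 3, 13 in KO mouse 4 and 2 in WT mouse 3. Fabp5, its neighbor on chromosome 3 (10012585 to 10016610 against 10204342 to 10208616 for Fabp4, build GRCm38.p6), was found in 112 cells and had 2533, 1578, 2339 and 1257 CPM, against 441, 654, 560 and 285 CPM (log2 2.00 ± 0.17 SE, edgeR adjusted p = 3.68e-07).

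Gpnmb had 172, 124, 750 and 740 CPM in Spp1 macrophages, against 23.8, 4.65, 160 and 63.7 CPM in other C1q macrophages. It was higher in all 4 mice although the groups overlapped, since WT mouse 2 had more Gpnmb in its other C1q macrophages than WT mouse 1 had in its Spp1 macrophages (log2 2.97 ± 0.25 SE, edgeR adjusted p = 6.12e-06; 0.198 in well 1 alone). Trem2 rose by less, with 489, 267, 665 and 1286 CPM, against 171, 180, 286 and 381 CPM (log2 1.29 ± 0.17 SE, edgeR adjusted p = 2.90e-05). Syngr1, a vesicle membrane protein, was 2.84 higher on the log2 scale, Acp5, the tartrate-resistant acid phosphatase of osteoclasts and some macrophages, 1.66, and Cd63, a tetraspanin of late endosomes, 1.33. Cd36, a scavenger receptor for oxidized lipids, Lipa, the lysosomal acid lipase, and Abca1, a cholesterol exporter, rose by 1.15, 1.15 and 0.82. Apoe, a lipid carrier, and Cd9, another tetraspanin, had larger mean levels in Spp1 macrophages (7115 and 482 CPM, against 2604 and 183 CPM) but did not pass (edgeR adjusted p = 0.290 and 0.309).

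The lysosome went the same way. Of 18 tested members of that list, 16 were higher and 0 lower, with a median of 0.77; Ctsk and Atp6v0d2 fell under the filter on low counts. The aspartic protease Ctsd had 2700, 1839, 4413 and 5547 CPM in Spp1 macrophages, against 786, 735, 967 and 1144 CPM in other C1q macrophages. The lowest Spp1 macrophage value thus exceeded the highest comparison value (log2 1.90 ± 0.15 SE, edgeR adjusted p = 2.01e-08). The cysteine protease Ctsl was 1.77 higher, Ctsb 1.20 and Lgmn, which cleaves after asparagine, 0.92. Atp6v1a, a subunit of the proton pump that acidifies lysosomes, was 1.12 higher, Lamp1, a protein of the lysosomal membrane, 0.77, and Igf2r, the receptor that brings newly made enzymes to lysosomes, 1.94.

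**Figure D3:**
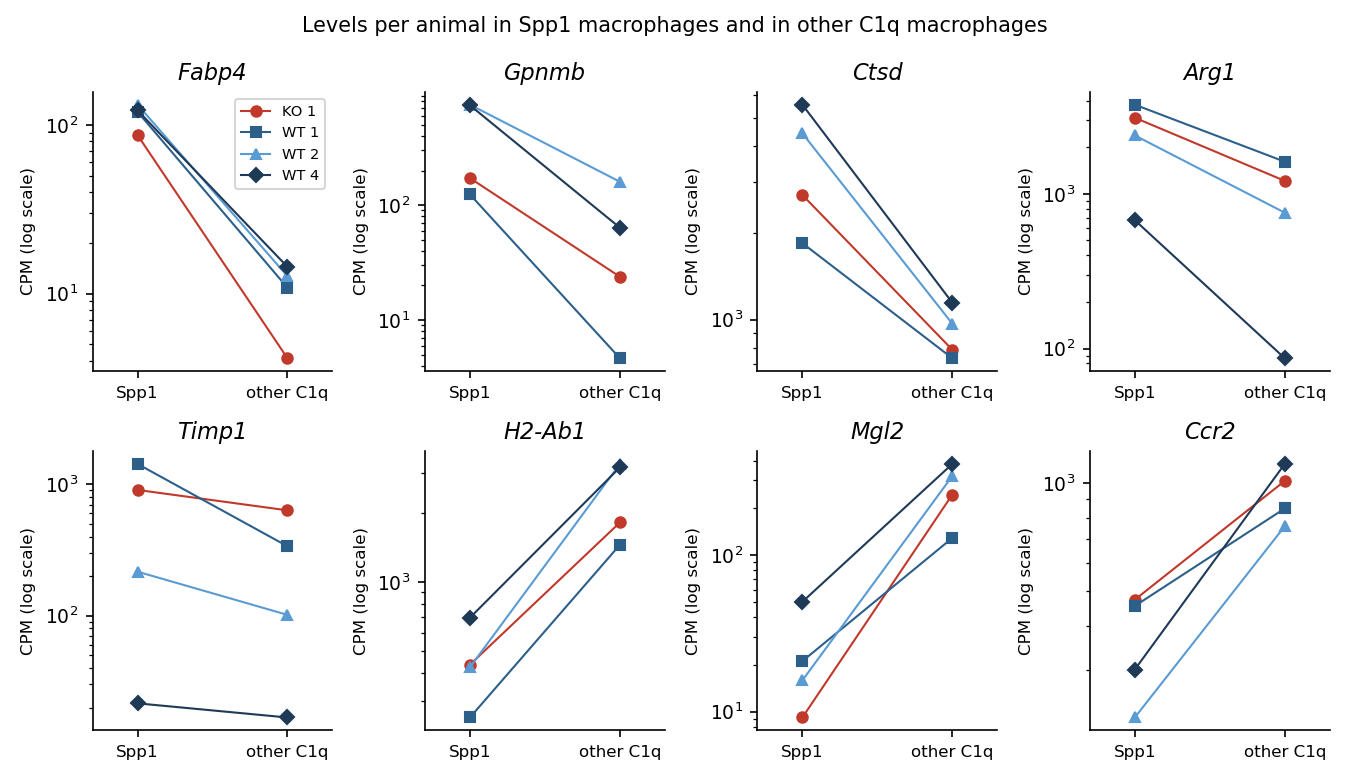
Levels of 8 genes in CPM after TMM scaling (log axes) in Spp1 macrophages (left of each panel) and other C1q macrophages (right), 1 line for each of the 4 mice with 10 or more cells of both kinds. Fabp4, Gpnmb, Ctsd, Arg1 and Timp1 are higher and H2-Ab1, Mgl2 and Ccr2 lower in the Spp1 macrophages of all 4 mice.

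Promoter sequence is shown for 3 of these lysosomal genes because many promoters of lysosomal genes are known to carry a short element, built around TCACGTG, that binds TFEB and related factors. The sequences are the 120 bases before the start site, 5′ to 3′ on the gene's strand, from RefSeq on build GRCm38.p6. Ctsd lies at chr7:142387828-142387947 (minus strand), Lamp1 at chr8:13159041-13159160 (plus strand) and Lgmn at chr12:102439093-102439212 (minus strand). Capitals mark TCACGTG on either strand, and where 2 matches overlap they form 1 capital run.
Ctsd: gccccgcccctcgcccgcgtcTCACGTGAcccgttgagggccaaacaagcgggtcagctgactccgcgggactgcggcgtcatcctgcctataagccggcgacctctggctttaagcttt
Lamp1: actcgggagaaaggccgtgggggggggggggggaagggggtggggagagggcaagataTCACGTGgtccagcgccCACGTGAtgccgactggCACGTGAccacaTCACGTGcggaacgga
Lgmn: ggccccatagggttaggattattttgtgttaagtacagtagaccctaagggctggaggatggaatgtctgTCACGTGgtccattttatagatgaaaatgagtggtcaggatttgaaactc
The window held 2 matches in Ctsd, 4 in Lamp1 and 1 in Lgmn. In RefSeq promoters of 300 bases (250 before to 50 after the start), TCACGTG on either strand occurred in 25 of the 186 genes that were higher and had a promoter entry (13.4%), in 8 of 153 that were lower (5.23%), in 398 of 4627 tested (8.60%) and in 4.29% of all 27025 genes with an entry. A gene with several entries counts once, if any of them matches; Lgmn has 2 entries, of which 1 is shown. These are counts of letters, not of bound sites.

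Other surface and secreted proteins were higher as well. Pf4, the chemokine CXCL4, had 3795, 3146, 6794 and 4606 CPM in Spp1 macrophages, against 1367, 1025, 1950 and 989 CPM in other C1q macrophages, with no overlap (log2 1.78 ± 0.14 SE, edgeR adjusted p = 1.01e-08). Pdpn, the mucin-like protein podoplanin, was 2.07 higher, F7, coagulation factor VII, 2.35, Fam20c, a kinase of secreted phosphoproteins that include osteopontin, 1.87, and Lhfpl2, a membrane protein, 2.19. Il7r, which stood on the list of lymphocyte markers, had 149, 160, 106 and 158 CPM, against 35.2, 71.3, 78.7 and 57.7 CPM (log2 1.30 ± 0.23 SE, edgeR adjusted p = 0.000693).

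Arg1 and Timp1 were higher in the Spp1 macrophages of each of the 4 fitted mice, at very different heights. Arg1 had 3104, 3770, 2386 and 675 CPM in Spp1 macrophages, against 1213, 1614, 755 and 86.5 CPM in other C1q macrophages, a log2 fold change of 1.70 ± 0.24 (SE). Timp1 had 906, 1429, 216 and 21.6 CPM, against 634, 338, 102 and 16.8 CPM (1.20 ± 0.26 SE). In WT mouse 4 the Timp1 value rests on 3 UMIs. Outside the fit, KO mouse 2 gave 0 Timp1 UMIs in its 1 Spp1 macrophage and WT mouse 5 gave 3 in its 6. Among the 4 fitted mice, WT mouse 4 was lowest in both genes and highest in Trem2, and mouse to mouse differences in Timp1 were larger than those between the cell groups.

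Some glycolysis, iron and redox genes were higher, while most members of these lists did not pass. Of 20 tested glycolysis and hypoxia genes, 9 were higher and 0 lower (median 0.52). Among them were Pgam1 (1.03), Ldha (0.67) and Gapdh (0.68), which are glycolytic enzymes, and Vegfa (1.42), the vascular growth factor induced by low oxygen, which was lower in the Spp1 macrophages of WT mouse 4. Hif1a, the oxygen-sensing factor itself, had 291 CPM against 286 CPM. Of 16 oxidative stress and iron genes, 4 were higher and 0 lower (median 0.49): the ferritin chains Fth1 (0.99) and Ftl1 (1.24), whose many processed copies make the counts uncertain, and the peroxiredoxins Prdx1 (0.67) and Prdx6 (1.38). The heme oxygenase Hmox1 had 797 CPM against 420 CPM and did not pass (edgeR adjusted p = 0.483).

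Most tested genes of antigen presentation on MHC class II were lower. Of 10 tested members, 7 were lower and 0 higher, with a median of -2.09. H2-Ab1, a class II beta chain, had 434, 254, 422 and 697 CPM in Spp1 macrophages, against 1824, 1455, 3295 and 3181 CPM in other C1q macrophages. The highest Spp1 macrophage value was under the lowest comparison value (log2 -2.42 ± 0.16 SE, edgeR adjusted p = 3.77e-10). Cd74, the invariant chain that guards class II molecules on their way to the endosome, had 1994, 1337, 1341 and 3341 CPM, against 6605, 5533, 11634 and 10489 CPM (log2 -2.12 ± 0.22 SE, edgeR adjusted p = 0.000167). H2-Eb1 fell by 2.82, H2-Aa by 2.26, H2-DMa by 1.32 and Ciita, the transactivator of the class II genes, by 3.34 on the log2 scale. H2-DMb1 fell by 2.05 but is a near copy of H2-DMb2, so its counts are uncertain. Dendritic cell markers, from a cell type rich in class II, moved the same way: they summed to 4.36 CPM in Spp1 macrophages and 33.2 CPM in other C1q macrophages, where Cd209a was found in 50 of 1129 cells and Flt3 in 24, against 2 and 0 of the 131 Spp1 macrophages. Their part in the class II result was not tested. In the MHC class I list 0 of 13 genes passed in edgeR (median -0.06), and in the type I interferon list 1 of 19 did (Bst2, which tethers viruses to membranes, 0.85; median -0.02).

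Promoter sequence is shown for 2 class II genes and for Spp1 because all 3 carry CTGATTGG, the inverted CCAAT letters known from the Y box of class II promoters, within the 120 bases before their start sites (RefSeq, build GRCm38.p6). H2-Aa lies at chr17:34287824-34287943 (minus strand), H2-Eb1 at chr17:34305747-34305866 (plus strand) and Spp1 at chr5:104434991-104435110 (plus strand), and capitals mark the match.
H2-Aa: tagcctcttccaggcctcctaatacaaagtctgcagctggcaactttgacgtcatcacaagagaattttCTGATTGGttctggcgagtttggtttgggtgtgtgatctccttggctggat
H2-Eb1: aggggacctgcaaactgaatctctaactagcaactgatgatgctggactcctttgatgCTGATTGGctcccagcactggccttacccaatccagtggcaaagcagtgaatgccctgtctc
Spp1: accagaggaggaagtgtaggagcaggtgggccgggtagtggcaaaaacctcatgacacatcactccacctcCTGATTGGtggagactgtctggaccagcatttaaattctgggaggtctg
The letters thus stand in genes that were lower and in the gene that defines the gate. On either strand they occurred in promoters of 9 of 186 genes that were higher (4.84%), 11 of 153 that were lower (7.19%), 286 of 4627 tested (6.18%) and 4.70% of all genes with an entry. Spp1 has 2 entries, of which 1 is shown.

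Genes of alternative activation by IL-4 and IL-13 were more often lower than higher, apart from Arg1, for which the cells were named. Of 14 tested, 6 were lower and 1, Arg1, higher (median -0.63). Mgl2, a C-type lectin, had 9.18, 21.0, 15.8 and 50.3 CPM in Spp1 macrophages, against 243, 129, 320 and 382 CPM in other C1q macrophages, with no overlap (log2 -3.52 ± 0.27 SE, edgeR adjusted p = 1.01e-08). Mrc1, the mannose receptor, fell by 0.87, Ccl24, the chemokine eotaxin-2 that draws eosinophils, by 1.05, and Ear2, an eosinophil-associated ribonuclease, by 1.86. Outside the 4 fitted mice, Ccl24 was uneven. KO mouse 4 held 135 UMIs in its 3 Spp1 macrophages and 120 in its 101 other C1q macrophages. WT mouse 3 held 82 in 9 and 198 in 161. KO mouse 3 held 5 in 3 and 54 in 69, and KO mouse 5 held 7 in 8 and 232 in 118. WT mouse 5 held 4 in 6 and 172 in 119, and KO mouse 2 held 1 in 1 and 50 in 96. Cd163, the hemoglobin scavenger receptor, gave 1 UMI in these Spp1 macrophages and 312 in the other C1q macrophages. Retnla, a secreted resistin-like protein, averaged 258 CPM against 5545 CPM and did not pass (edgeR adjusted p = 0.0677).

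Tissue-resident macrophage genes did not move as 1 group. Of 14 tested, 3 were higher (Pf4, Folr2, Stab1) and 4 lower (Cd163, Lyve1, F13a1, Mrc1), with a median of 0.01. The folate receptor Folr2 had 213, 137, 238 and 237 CPM, against 115, 40.3, 80.0 and 44.5 CPM (log2 1.55 ± 0.21 SE, edgeR adjusted p = 4.50e-05). Lyve1, the hyaluronan receptor often paired with Folr2 in perivascular macrophages, had 4.59, 8.41, 5.28 and 0 CPM, against 48.7, 27.9, 91.4 and 57.7 CPM (log2 -3.08 ± 0.44 SE, edgeR adjusted p = 6.84e-05). Folr2 and Lyve1 therefore went in opposite directions in the same comparison.

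Ccr2, the receptor that brings monocytes into tissue, was lower in Spp1 macrophages, with 473, 454, 222 and 301.8 CPM, against 1014, 849, 758 and 1131 CPM (log2 -1.36 ± 0.16 SE, edgeR adjusted p = 1.08e-05). The complement receptor C3ar1 was 0.76 higher, and the other 7 tested chemokine and complement receptors did not pass. Among 16 chemokines, Pf4 was higher and Ccl24 and Ccl4 lower in this fit, and among 9 cytokine genes Il1b was lower (-1.18). Of the 6 receptors for osteopontin that were tested, the integrin chain Itgb5 was higher (0.80) and Itga4 lower (-0.58), while Cd44 had 624 CPM against 692 CPM. Of 18 matrix and wound genes, Mmp14, a membrane metalloproteinase (0.99), Vegfa and the naming gene Timp1 were higher, and Vcan, a proteoglycan (-0.71), and Tgfbi, a matrix protein (-0.59), lower. Fn1, fibronectin, had 2214 CPM against 1933 CPM (edgeR adjusted p = 0.808).

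Scavenger and phagocytic receptors were divided, with 3 of 16 higher (Msr1, Cd36, Stab1) and 3 lower (Cd163, Mrc1, Fcgr2b). Of 21 transcription factors only Cebpa (0.68) and Klf2 (-0.67) passed, and of 4 genes tested from the list of IL-10 and IL-20 family receptors, Ifngr1, the ligand-binding chain of the interferon-gamma receptor, was lower (-0.94). None of 6 cell cycle genes passed, in cells that the gate had already limited for Mki67 and Top2a. Of the other large decreases, Lyz1 fell by 4.82 but is a near copy of Lyz2, which did not pass (0.37, edgeR adjusted p = 0.417), and without KO mouse 1 Lyz1 missed the threshold too (edgeR adjusted p = 0.0652). Tmem176b (-3.54) and Tmem176a (-2.76) overlap on chromosome 6, where their reads may be shared. Batf3, a transcription factor, fell by 2.19, and Fxyd2, a subunit of the sodium pump, by 2.55.

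Some genes known to be induced by tissue dissociation were lower in the same comparison: 6 of 14 were called lower and 0 higher (median -0.48), among them Hspa1b (-1.93) and Hspa1a (-1.57), heat shock genes that are near copies, and Egr1 (-0.96). Depth and mitochondrial share moved with the groups as well. A fit on cells with 5000 or more UMIs called 156 genes higher and 153 lower, 295 of them among the 432. A gate on shares of each cell's UMIs called 299 higher and 243 lower, 354 of them among the 432. The part of the dissociation genes and the mitochondrial share in the results was not tested.

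**Figure D4:**
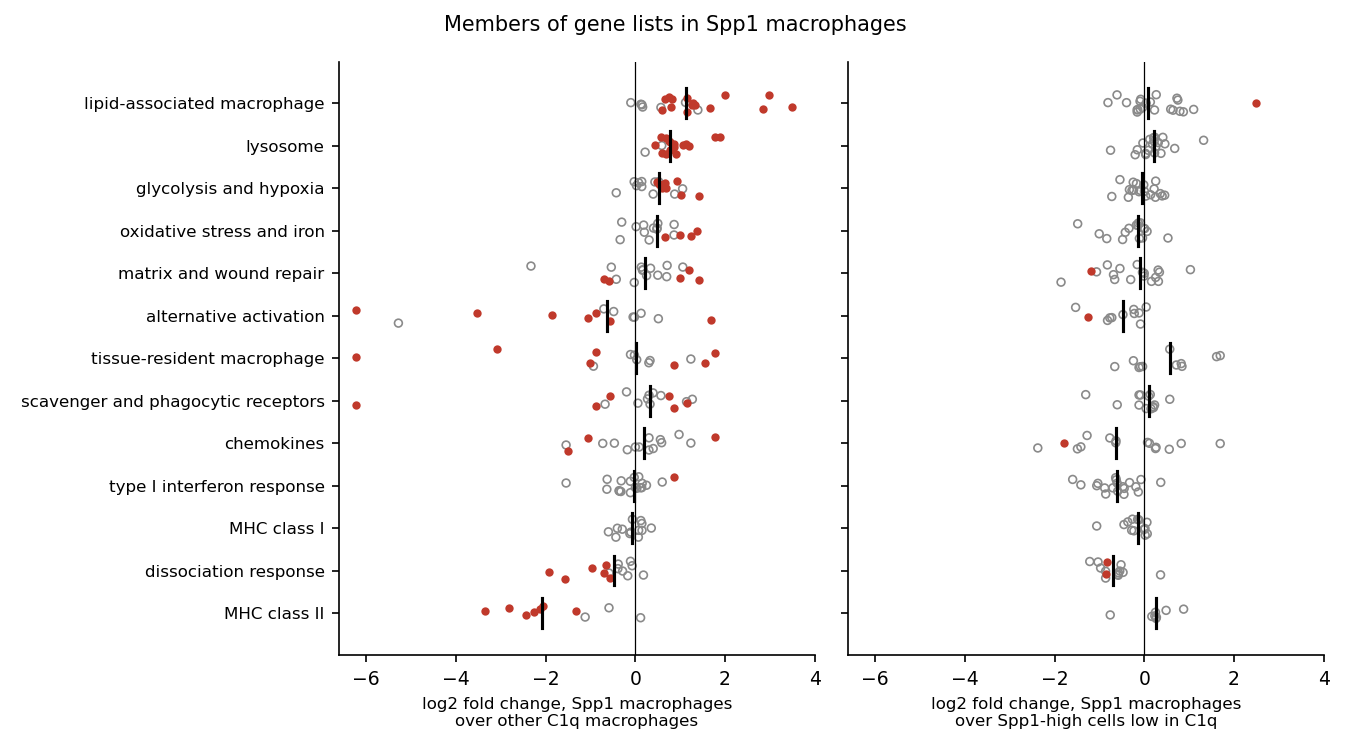
Log2 fold changes of the tested members of 13 gene lists, for Spp1 macrophages over other C1q macrophages (left) and over Spp1-high cells low in C1q (right); filled points passed an edgeR adjusted p under 0.05, open points did not, and black bars are medians. Lipid-associated and lysosome members lie to the right and MHC class II members to the left in the left panel; the leftmost filled points are Cd163, which had 1 UMI in Spp1 macrophages, so that its fitted value is no measure of size.

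Spp1 macrophages were also set against C1q macrophages that were rich in Trem2 and Gpnmb but low in Spp1. When only comparison cells with 5 or more summed Trem2 and Gpnmb UMIs were used (12, 20 and 26 cells in KO mouse 1, WT mouse 2 and WT mouse 4), 7 of 2479 genes passed. With comparison cells that had fewer than 5, 437 of 5509 genes passed, in 4 mice with WT mouse 1 included, so the 2 counts come from unlike fits. Fabp4 (2.34), Clec4d, a C-type lectin (1.60), Sgk1, a stress-induced kinase (1.45), the naming gene Arg1 (1.23) and Ctsd (0.97) were higher in Spp1 macrophages, and H2-Ab1 (-1.20) and Batf3 (-2.50) lower. The lipid-associated list had 1 of 22 called and a median of 0.28 there, but Trem2 and Gpnmb, which chose the comparison cells, are on that list, so its lower median is partly fixed by the choice. With 3 mice and fewer comparison cells, fewer genes could pass, so genes outside the 7 are not shown to be alike. The direction for class II stayed: Cd74 was at -1.07 and H2-Eb1 at -1.47, without passing (edgeR adjusted p = 0.148 and 0.159).

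The other close neighbors were the Spp1-high cells low in C1q, which share the Spp1 side of the gate. The 3 mice with 10 or more of each kind (KO mouse 1, WT mice 1 and 2) were compared with the mouse as a block, and 32 of 4218 genes (0.759%) passed in edgeR, 4 higher (0.0948%) and 28 lower (0.664%) in Spp1 macrophages. Arg1 had 3155, 3855 and 2520 CPM in Spp1 macrophages, against 3102, 2637 and 3500 CPM in Spp1-high cells low in C1q, so that the groups overlapped (log2 0.04 ± 0.18 SE). Timp1 also overlapped (0.31 ± 0.80 SE), and so did Gpnmb, which did not pass (0.27 ± 0.30 SE, edgeR adjusted p = 0.755). A p that misses the threshold does not show that levels are equal.

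Fabp4 was again among the higher genes, on 120 UMIs in Spp1 macrophages and 15 in Spp1-high cells low in C1q. Its call was lost in 6 of the 12 alternative fits that it entered. It had 88.6, 122 and 139 CPM in Spp1 macrophages, against 27.2, 3.95 and 24.2 CPM in Spp1-high cells low in C1q (log2 2.50 ± 0.42 SE, edgeR adjusted p = 0.0126). C1qbp, a mitochondrial protein first found by its binding to C1q, was 1.75 higher, and Lgals1, the lectin galectin-1, 0.69. Several of the lower genes are known from circulating monocytes and granulocytes. Chil3, the chitinase-like protein Ym1, had 275, 1156 and 630 CPM in Spp1 macrophages, against 896, 1981 and 1635 CPM in Spp1-high cells low in C1q. It was lower in all 3 mice although the groups overlapped (log2 -1.26 ± 0.18 SE, edgeR adjusted p = 0.00721). Csf3r, the receptor for G-CSF, fell by 2.49, Ifitm6, a membrane protein of monocytes, by 1.89, the neutrophil chemokine Cxcl3 by 1.80, complement C3 by 1.93 and the proteoglycan Vcan by 1.19. Gsr, Mxd1, Tnfaip2, Ifi205, Sema4d and Slamf7 fell by 1.23 to 1.84.

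Neutrophil markers moved with this comparison: they summed to 77.3 CPM in Spp1 macrophages and 1737 CPM in Spp1-high cells low in C1q, where mice with 10 or more of these cells ranged between 74.7 and 9602 CPM, and Retnlg was at 0 in Spp1 macrophages. Without cells that held 3 or more UMIs of other lineages' markers, only KO mouse 1 and WT mouse 1 remained, with 3201 genes tested. There 42 genes passed, 10 of them among the 32. Cxcl3, Ifitm6, C1qbp, Gsr, Mxd1, Sema4d and Tnfaip2 were no longer called, and Fabp4 and Csf3r did not enter that fit. Because WT mouse 2 also fell out, the part of the removed cells in these lost calls was not tested. The lipid-associated list (1 of 22 called, median 0.09), the lysosome list (0 of 20, median 0.21) and the class II list (0 of 8, median 0.26) stood beside a median of 0.01 over all tested genes. In the dissociation list 2 of 14 were lower (Zfp36, which destabilizes cytokine transcripts, -0.83, and Ier3, an immediate early gene, -0.86), 13 of 14 were negative and the median was -0.71. In the type I interferon list 0 of 19 passed in edgeR, 18 were negative and the median was -0.60. The part of the dissociation genes in this comparison was not tested. DESeq2 called 20 genes, 6 of them among the 32, and edgeR without WT mouse 1 called 0.

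Values of single genes in the 2 comparisons can be set side by side. Both hold the Spp1 macrophages of KO mouse 1 and WT mice 1 and 2, but WT mouse 4 is only in the first. Each fit was filtered and scaled on its own. Pdpn was 2.07 against other C1q macrophages and 0.23 against Spp1-high cells low in C1q, Ctsd was 1.90 and 0.23, F7 2.35 and 0.11, and Lhfpl2 2.19 and -0.10. Syngr1 was 2.84 and 0.87, Fabp5 2.00 and 0.73, Pf4 1.78 and 0.82, and Igf2r 1.94 and 0.72. H2-Ab1 was -2.42 and 0.27, Cd74 -2.12 and 0.25, and H2-Eb1 -2.82 and 0.88. None of these genes passed in the second comparison, where the edgeR adjusted p was 0.123 for Fabp5, 0.151 for Syngr1 and 0.154 for H2-Eb1. Fabp4, at 3.49 and 2.50, was called in both main fits, though 6 of 12 alternative fits lost its call in the second comparison.

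Genotype was tested within the Spp1 macrophages of the 9 mice with 3 or more of these cells (KO mice 1, 3, 4 and 5; all WT mice), since only 1 KO mouse had 10. The targeted gene and 4 genes followed as genotype checks came first. Il20rb gave 1 UMI in KO and 1 in WT Spp1 macrophages, too few to check the knock-out. Gm42031 gave 0 UMIs in KO and 36 in WT cells, Nudt16 14 in KO and 3 in WT cells, and AC102496.1 1 in KO and 12 in WT cells. Rpl29, a ribosomal protein gene, gave 352 UMIs in KO and 1046 in WT Spp1 macrophages and fell by 0.92 ± 0.34 (SE) without passing (edgeR adjusted p = 0.626). The UMIs of these genes are unscaled sums over 48 KO and 83 WT cells, with fewer UMIs in all on the KO side.

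No gene passed: 0 of 1587 (0%) in edgeR, where 109 had an unadjusted p under 0.05, and 0 in DESeq2. Among the higher genes with the smallest p-values were H2-T23, a nonclassical class I molecule, Cd180, a Toll-like receptor homolog, Slc15a3, a lysosomal peptide transporter, and Thbs1, thrombospondin 1, with log2 differences of 1.41, 1.51, 1.58 and 1.33. H2-T23 had 468, 314, 601 and 945 CPM in KO mice 1, 3, 4 and 5, against 369, 179, 129, 162 and 203 CPM in WT mice 1 to 5. KO mouse 3 lay under WT mouse 1, so the groups overlapped, and the adjusted p was 0.626 in edgeR, as for the 3 others. Among the lower genes with the smallest p-values were Tsc22d3, a glucocorticoid-induced regulator (-1.63), Eef1b2, Rpl26 and mt-Nd5, also at 0.626.

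No type I interferon gene passed, but all 17 tested members had a positive difference between KO and WT, with a median of 1.40, where the median over all tested genes was 0.018. The summed level of all 20 genes on the list in Spp1 macrophages was 10090, 2746, 971, 12340 and 21380 CPM in KO mice 1 to 5, against 8592, 2508, 1197, 1896 and 3920 CPM in WT mice 1 to 5. KO mouse 2 holds 1 cell. Mice 1, 4 and 5 of KO were high, and so was WT mouse 1, while KO mouse 3 was the lowest of all 10. Members of such a list vary together, so the count is not that many separate observations. The median was 0.89 without KO mouse 5 and 2.30 without WT mouse 1. Ifit2, an interferon-induced RNA-binding protein, shows the pattern, with 205, 78.5, 601 and 1345 CPM in KO mice 1, 3, 4 and 5, against 258, 44.8, 23.4, 24.3 and 178 CPM in WT mice (log2 2.26 ± 0.88 SE, edgeR adjusted p = 0.626).

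MHC class I genes followed, with 9 of 9 tested members positive and a median of 0.82, and 0 called. H2-D1, a classical class I heavy chain, had 2111, 1806, 3054 and 3950 CPM in KO mice, against 1336, 1946, 1264, 1872 and 1371 CPM in WT mice, so the groups overlapped by KO mouse 3. Of the lists described above none had a call by genotype, and the median was 0.28 for the lipid-associated list, 0.07 for the lysosome list and 0.10 for class II. Gpnmb was 309.1 ± 147 CPM in KO (n = 4) and 485 ± 384 CPM in WT mice (SD, n = 5), Arg1 2890 ± 1384 and 2065 ± 1421 CPM, and Timp1 848 ± 597 and 403 ± 658 CPM, differences within the spread between mice.

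**Figure D5:**
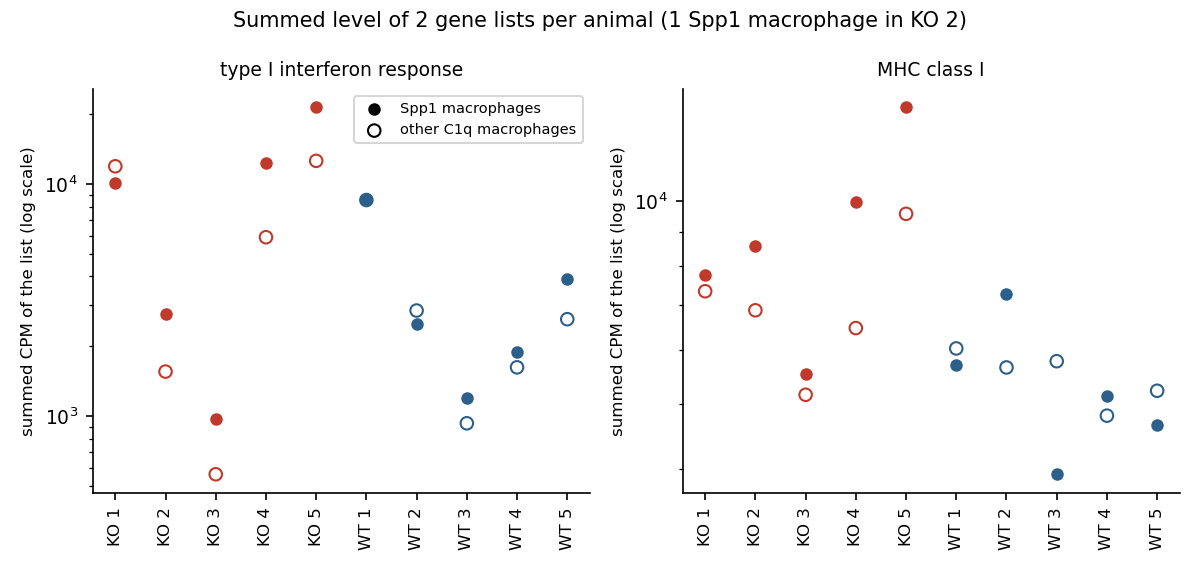
Summed CPM (log axes) of the type I interferon list (left) and the MHC class I list (right) in each mouse, KO left of WT, in Spp1 macrophages (filled) and other C1q macrophages (open). The interferon sum of Spp1 macrophages is highest in KO mouse 5 at 21380 CPM and lowest in KO mouse 3 at 971 CPM, and the 4 mice with the highest sums (KO mice 1, 4 and 5 and WT mouse 1) are also the 4 highest in other C1q macrophages.

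The 4 highest mice were also the 4 highest in their other C1q macrophages, whose interferon sums were 11920, 1558, 563, 5902 and 12580 CPM in KO mice 1 to 5, against 8532, 2854, 933, 1625 and 2619 CPM in WT mice. Whether the genotype effect differs between the cell groups was tested as an interaction in the 9 mice, and 6 of 6127 genes (0.0979%) passed in edgeR, none of them in the interferon list (0 of 20 called, median 0.17) or the class I list (0 of 14, median 0.29). DESeq2 called 0 in the interaction, where edgeR found 236 at an unadjusted p under 0.05.

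Of those 6 genes, Il7r had 154, 118, 565 and 569 CPM in the Spp1 macrophages of KO mice 1, 3, 4 and 5, against 164, 109, 127, 165 and 97.9 CPM in those of WT mice. The other C1q macrophages had 29.5 to 46.8 CPM in these KO mice, against 34.0 to 82.0 CPM in WT mice. The difference between the 2 genotype effects was 1.83 ± 0.39 (SE, edgeR adjusted p = 0.00463), and rests on KO mice 4 and 5, with 3 and 8 Spp1 macrophages: without KO mouse 4 the adjusted p was 1.00 and without KO mouse 5 it was 0.868 in edgeR, and without WT mouse 2 it was 0.0964 in edgeR. Rgs1, a regulator of G protein signaling, differed by 1.25, Mmp12, the macrophage elastase, by 3.97, Cd72, a lectin-like receptor, by 3.64 and Sdc1, the proteoglycan syndecan-1, by 3.16. These last 3 rest on 22 to 35 UMIs of each gene in all Spp1 macrophages. Rgs1 lost its call in 12 of 16 alternative fits, and its highest KO value, 1675 CPM in KO mouse 3, comes from 3 cells. Saa3, an acute phase protein, gave 2 UMIs in KO and 130 in WT Spp1 macrophages, 68 of them in WT mouse 2, and 0 in WT mice 4 and 5. Both KO UMIs lay in the 1 Spp1 macrophage of KO mouse 2, a mouse outside the fit.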

How the data were processed

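The authors deposited UMI counts per gene and cell for 2 wells, with a hashtag call for each cell that names its mouse and genotype. Cell Ranger 6.0.1, R 4.0.5 and build mm10 are named in the submitters' processing notes; the annotation release, strand setting and way of calling hashtags were not stated in what was read. The table held 32285 genes and 6054 cells (2633 KO, 3421 WT; 2885 in well 1, 3169 in well 2) with 1000 to 52182 UMIs per cell and a median of 5269, and 2 barcodes occurred in both wells. Symbols came from a RefSeq table of GRCm38.p6, which matched 32158 identifiers and missed 127; 52 that shared a symbol kept their identifiers.

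Cells were gated on UMIs as the report states. No doublet caller was run. Counts were summed per mouse and cell group and tested in edgeR 4.0.16 (R 4.3.3) by quasi-likelihood after its expression filter and TMM scaling, with Benjamini-Hochberg adjustment and a threshold of 0.05; gate genes stayed out of the adjustment. Groups needed 10 cells per mouse. Only 1 KO mouse met this, so both genotype tests used mice with 3 or more cells, a limit chosen after seeing the data. The cell-group comparisons use the mouse as a block because both groups come from the same animals. Shares were compared by two-sided exact permutation (scipy 1.17.1, Python 3.11.15), and intervals are exact binomial 95% intervals that cover counting error only. Cells were thinned to 3000 UMIs where stated, which kept 128 of 131 Spp1 macrophages, 971 of 1129 other C1q macrophages and 135 of 160 Spp1-high cells low in C1q. DESeq2 1.42.0 was an alternative. Genes named by rule were the 12 largest changes each way with a mean of 50 CPM or more and the same direction in every mouse. Without calls, the genes with the smallest p-values were named. A few genes named by these rules are not reported here. The members and lists were chosen with earlier results of these data known.

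On simulated counts, known 2-fold and 4-fold changes were recovered in 90% and 100% of cases for the comparison with other C1q macrophages (5745 genes), 68% and 98% for that with Spp1-high cells low in C1q (4222 genes), 33% and 95% for genotype (1591 genes), and 22% and 87% for the interaction (6131 genes). The changes were set only in genes with a mean of 50 CPM or more. Every gene had the same median dispersion, and mice differed only in depth. These rates are therefore not the power of the tests on the real counts.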

Additional observations from a re-analysis of the deposited data

Results flagged for a closer look

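KO mouse 1 lay far above the other KO mice in Spp1 macrophages, at 3.76% of its cells where the next KO mouse had 1.18%, and at 19.5% of its C1q macrophages where the next had 6.35%. WT mouse 1 lay far above the other WT mice in Spp1 over all its cells, at 1225 CPM where the next had 314.5 CPM. Lyz1 in the Spp1 macrophages of WT mouse 4 was 50.3 CPM, where the next of the 4 mice had 6.88 CPM. In all, 62 groups of samples were screened and 4 held such a value; chance gives about 1 in 20.

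Genotype effects differed between Spp1 macrophages and other C1q macrophages for 6 genes in the edgeR interaction test. The difference of the log2 effects was 3.97 for Mmp12, 3.64 for Cd72, 3.16 for Sdc1, 1.83 for Il7r and 1.25 for Rgs1. For Saa3 the fitted value was -8.86, which depends on the prior count because the Spp1 macrophages of the KO mice in the fit held 0 UMIs.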

How the results depend on the processing

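The shares of Spp1 macrophages missed the threshold under all alternatives run, with KO minus WT between -1.53 and -0.557 percentage points of all cells and between -8.76 and -1.73 of C1q macrophages when single mice were left out. Against other C1q macrophages the 432 calls became 176 with DESeq2, 131 without cells holding other lineages' markers, 120 in well 1, 162 in well 2, 7 against Trem2- and Gpnmb-rich cells, and 217 to 400 with 1 mouse left out. They became 580 with no filter, 590 with Spp1 at 5 or more UMIs, 572 with a minimum of 3 cells, 542 with a gate on shares of UMIs and 532 against cells with 2 or fewer Spp1 UMIs. Against Spp1-high cells low in C1q the 32 calls became 20 with DESeq2, 160 with no filter, 183 with Spp1 at 5 or more UMIs, 55 at 20 or more, 13 in well 1, 55 in well 2, 98 in cells with 5000 or more UMIs, 11 with a minimum of 3 cells, 208 with a gate on shares of UMIs, and 0 to 99 with 1 mouse left out. The cause was not tested, except that several of these fits hold fewer cells or genes. Both comparisons pair cell groups within a mouse; with no such block the calls were 62 and 0.

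The 0 calls for genotype became 7 with no filter and 1 with the gate on shares. The 6 interaction calls became 0 with DESeq2, 3 with its size factors in edgeR, 1 with Spp1 at 5 or more UMIs, 1 in well 1, 2 with the gate on shares and 1 to 11 with 1 mouse left out; Mmp12 reversed to -0.45 with Spp1 at 5 or more UMIs. No paired analysis was possible because KO and WT mice are different animals whose numbers only name them. Over these alternatives, 47 of 512 values for 26 named genes lost their call in the first comparison, 87 of 223 for 15 genes in the second and 42 of 93 for 6 genes in the interaction. Not run, for want of mice with enough cells, were the genotype fits at 10 or 20 cells, with Spp1 at 20 or more UMIs, without other-lineage cells and in well 2 alone.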

Other observations

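Spp1-high cells low in C1q, which held 39.2% of all Spp1 UMIs, were 2.52 ± 2.51% of KO and 1.89 ± 1.51% of WT cells (SD, n = 5 each; two-sided exact permutation p = 0.698). Arg1 was found in 70.0% of them and Timp1 in 46.9%. Over all cells of a mouse, Spp1 was 402 ± 428 CPM in KO and 420 ± 455 CPM in WT mice (SD, n = 5 each; exact permutation p = 0.913).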
